A study of Homo sapiens with 6 samples.

Results

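The EGFR family was described here as 10 genes found by name in a table of 58735 genes. They are the receptor genes EGFR, ERBB2 and ERBB3, the ligand genes EREG, AREG, HBEGF, TGFA and BTC, the sheddase gene ADAM17 and the inhibitor gene ERRFI1. The samples were 6 RNA-seq libraries of HuCCT1, an established human cholangiocarcinoma (bile duct cancer) line. In 3 libraries, labelled siC1QBP, the cells had received a small interfering RNA against C1QBP, which encodes a protein found chiefly in mitochondria. In the other 3, labelled siNC and wt, cells of the same line had received the control siRNA. Information on the siRNA sequences, their number, the dose and the time after transfection is not given in the sources used here. All libraries come from 1 line, and effects of lower C1QBP and other effects of the siRNA cannot be told apart. The series title concerns a feedback loop of C1QBP with PAICS, FAK and c-Myc in proliferation. The comparison of siC1QBP with siNC libraries asks here which RNAs of the EGFR system differed in level when C1QBP was lowered.

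EGFR family receptors are tyrosine kinases of the cell surface that pair when a ligand binds and then signal through RAS and ERK, PI3K and AKT, phospholipase C gamma and STAT proteins. ERBB2 binds no known ligand and ERBB3 has a weak kinase, so both act mainly as partners in mixed pairs. Ligands such as amphiregulin (AREG), epiregulin (EREG), heparin-binding EGF-like growth factor (HBEGF), transforming growth factor alpha (TGFA) and betacellulin (BTC) are made as membrane proteins and are cut free by sheddases, chiefly ADAM17. ERRFI1, also called MIG6, is induced by the pathway and blocks the kinase of active receptors. Bile duct epithelium and its tumours express EGFR and several of its ligands.

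Total counts ranged from 17122252 to 18847340 in siC1QBP and from 18313264 to 20416243 in siNC libraries. The siRNA target C1QBP was measured at 59.1, 57.6 and 60.0 CPM (read counts scaled to library sizes that the TMM method of edgeR adjusted) in siC1QBP and at 175, 181 and 185 CPM in siNC libraries. All 7 biliary epithelial markers were present, from 53.3 TPM for SOX9 to 3310 TPM for KRT7 in siNC libraries, and KRT7 and KRT19 fell by 0.26 and 0.19 on the log2 scale (edgeR adjusted p = 0.000214 and 0.00863). Of 13 markers of hepatocytes, fibroblasts, leukocytes and endothelium, 4 passed the filter on low counts. The leukocyte marker CD14 had the highest mean TPM of these markers, 12.2 in each group. Next came the fibroblast marker LUM, with mean TPM of 11.9 (siC1QBP) and 9.03 (siNC). By CPM, which is not divided by gene length, LUM was the highest (9.73 against 7.56). TTR and CD3E had 0 counts in all libraries, ALB and THY1 1 count each, and PTPRC 8. In a chi-square comparison of gene counts, divided by its degrees of freedom, siC1QBP replicate 1 differed from the other two of its group by 6.66 and 6.77, and those from each other by 2.09. The siNC values were 3.67 and 3.40 for replicate 1 and 2.13 for the other pair. The labels do not say that replicates were separate cultures, and the p-values then reflect only how far these samples varied, possibly for technical reasons.

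All 10 genes passed the filter on low counts, as did 15530 genes of the table. In siC1QBP libraries 4 of the 10 rose, the ligand genes EREG (1.32-fold) and TGFA (1.19-fold) and the receptor genes ERBB3 (1.14-fold) and EGFR (1.09-fold), and 0 fell (quasi-likelihood test of edgeR, adjusted p under 0.05 over the 15530 genes). HBEGF was called as well when libraries were scaled by size alone. The other 6 did not pass. In these bulk libraries more cells that express a gene and more RNA per cell cannot be told apart. Among all tested genes 6.47% were called higher and 7.84% lower, and among the 5581 tested genes whose mean level reached 40 CPM, as in 9 of the 10, 9.37% were called higher and 15.8% lower. Scaling by library size alone gave 1253 genes called higher and 908 lower, against 1005 and 1217 with TMM. The median log2 fold change was 0.13 over the 10 genes and 0.003 over all tested genes. In 6 of the 10 genes (EGFR, ERBB3, EREG, HBEGF, TGFA and ADAM17) every siC1QBP library was above every siNC library, an order found in 16.0% of tested genes. The opposite order was found in 16.6% of tested genes and in 0 of the 10. Both shares are over genes of all levels, and neither was taken for genes of at least 40 CPM.

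**Figure D1:**
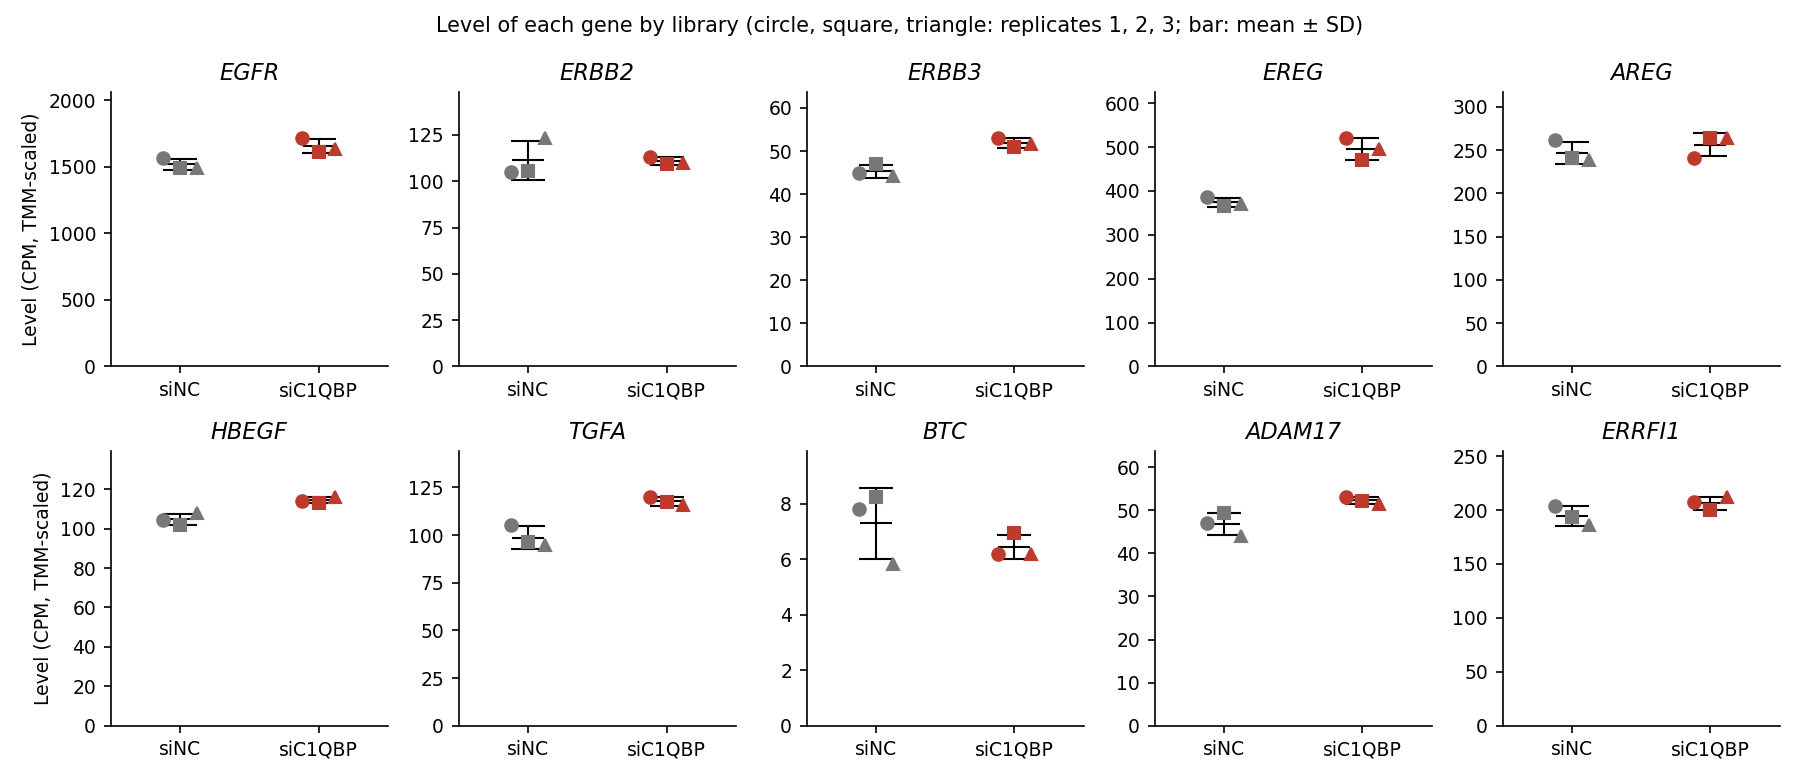
Level of each of the 10 genes in every library, in CPM on TMM-scaled library sizes (vertical axes start at 0 and differ between panels). Points are libraries and bars the mean with its SD; the groups of points are apart in EGFR, ERBB3, EREG, HBEGF, TGFA and ADAM17 and overlap in ERBB2, AREG, BTC and ERRFI1.

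Fold changes moved with the length of the gene across the whole table. Of the 3106 tested genes in the longest of 5 equal bins (gene models of at least 7823 bases) 12.7% were called higher, with a median log2 fold change of 0.06, and of the 3107 in the shortest bin (up to 2292 bases) 2.90%, with a median of -0.04. EGFR (12521 bases), ADAM17 (10750), ERBB2 (10321) and ERBB3 (9039) lie in the longest bin. EREG (5717 bases) is in the next, TGFA (4963) and ERRFI1 (4186) in the middle bin, HBEGF (3018) and BTC (2816) below it, and AREG (1648) in the shortest. Each of the 10 genes is also given below after each library's trend with gene length was removed.

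The levels of the 10 genes spanned a wide range on the TPM scale, which divides counts by gene length and then by library. In siNC libraries AREG was highest at 540 ± 33.6 TPM (SD, n = 3, as for all levels here), followed by EGFR at 436 ± 16.7, EREG at 236 ± 9.16, ERRFI1 at 167 ± 9.35, HBEGF at 125 ± 3.84 and TGFA at 71.6 ± 5.06 TPM. ERBB2 stood at 38.8 ± 3.55, ERBB3 at 18.0 ± 0.520, ADAM17 at 15.7 ± 0.861 and BTC at 9.31 ± 1.65 TPM. The order was the same in siC1QBP libraries, and in neither group did the ranges of neighbours in the order overlap. It depends on the gene length used: with the principal transcript in place of the table's gene length, ERBB2 (55.9 TPM) came above TGFA (52.4 TPM) and ADAM17 (24.2 TPM) above ERBB3 (17.5 TPM) in siNC libraries.

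EGFR (ENSG00000146648; hg38 chromosome 7, 55019021 to 55211628, plus strand) supplied most receptor RNA. It stood at 1718, 1614 and 1636 CPM in siC1QBP and at 1565, 1493 and 1493 CPM in siNC libraries. The lowest siC1QBP library lay above the highest siNC library, a 1.09-fold difference (95% interval 1.03 to 1.15; log2 0.13, SE 0.04; edgeR adjusted p = 0.0410). The EGFR call was lost when the length trend was removed (log2 fold change 0.06, adjusted p = 0.267) and on leaving out replicate 2 or replicate 3 of either group (edgeR adjusted p = 0.0544 to 0.192). Its antisense partner EGFR-AS1 held 495 counts over the 6 libraries, against 176048 for EGFR.

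ERBB3 (ENSG00000065361; chromosome 12, 56076799 to 56103505, plus strand), the receptor with a weak kinase that links ERBB2 to PI3K, stood at 53.1, 50.9 and 51.6 CPM in siC1QBP and at 44.8, 46.9 and 44.1 CPM in siNC libraries. The groups did not overlap, and levels differed 1.14-fold (95% interval 1.06 to 1.24; log2 0.20, SE 0.06; edgeR adjusted p = 0.0328). The ERBB3 call was lost without any one of the 6 libraries (edgeR adjusted p = 0.0516 to 0.143), with the length trend removed (0.0812), with DESeq2 (0.0839) and with no filter beyond 1 count (0.0906).

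ERBB2 (ENSG00000141736; chromosome 17, 39687914 to 39730426, plus strand), the partner receptor without a ligand, stood at 113, 109 and 110 CPM in siC1QBP and at 105, 105 and 123 CPM in siNC libraries. The siNC replicates 1 and 2 lay below all siC1QBP libraries and replicate 3 lay above them all. The log2 fold change was -0.01 (95% interval -0.12 to 0.11; edgeR adjusted p = 0.961), and without siNC replicate 3 it was 0.07 (adjusted p = 0.488). With the length trend removed it was -0.06 (adjusted p = 0.542). ERBB2 overlaps MIEN1 and PGAP3 on the opposite strand (3407 and 1303 counts over the 6 libraries, against 12327 for ERBB2), and as the strand setting of the counting is not given in the sources used here, reads of such pairs may have been assigned to either gene.

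The receptor RNAs added up to 564, 529 and 541 TPM in siC1QBP and to 510, 480 and 488 TPM in siNC libraries. EGFR made up 88.9% ± 0.128 of that sum in siC1QBP and 88.5% ± 0.793 in siNC libraries, so the share of EGFR differed by less than the spread between siNC libraries. The remaining receptor of the family, ERBB4, had 2 counts in siC1QBP replicate 1, 0 in replicates 2 and 3, and 2, 3 and 1 in the siNC libraries. A count of 0 allows a level of up to 0.147 to 0.175 CPM (3 counts of the library total; counting error only), so ERBB4 was near that limit in both groups.

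EREG encodes epiregulin, a ligand of EGFR and ERBB4. It lies on chromosome 4 (ENSG00000124882; 74365143 to 74388751, plus strand), 56.4 kb ahead of AREG (ENSG00000109321; 74445134 to 74455009, plus strand). The 250 bases before the start sites of EREG, AREG and TGFA are shown because EREG and TGFA were the 2 ligand genes that rose and AREG is the neighbour of EREG that did not pass. The sequences are from RefSeq (GRCh38.p14; 9 of the 10 genes matched) at chr4:74364895-74365144 (plus strand), chr4:74444886-74445135 (plus strand) and chr2:70553827-70554076 (minus strand), written 5′ to 3′ on the gene's strand. Capitals mark matches to the motifs searched on both strands.
EREG: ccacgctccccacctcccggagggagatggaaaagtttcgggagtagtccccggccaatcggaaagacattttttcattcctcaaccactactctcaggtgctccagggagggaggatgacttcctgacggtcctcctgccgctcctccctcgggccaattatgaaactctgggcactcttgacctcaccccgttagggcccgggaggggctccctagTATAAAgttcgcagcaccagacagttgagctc
AREG: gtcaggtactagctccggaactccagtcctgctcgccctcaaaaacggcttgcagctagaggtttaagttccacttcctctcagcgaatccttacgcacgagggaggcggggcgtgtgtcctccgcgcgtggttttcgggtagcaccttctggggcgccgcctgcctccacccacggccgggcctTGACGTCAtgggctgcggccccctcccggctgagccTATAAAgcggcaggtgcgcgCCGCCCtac
TGFA: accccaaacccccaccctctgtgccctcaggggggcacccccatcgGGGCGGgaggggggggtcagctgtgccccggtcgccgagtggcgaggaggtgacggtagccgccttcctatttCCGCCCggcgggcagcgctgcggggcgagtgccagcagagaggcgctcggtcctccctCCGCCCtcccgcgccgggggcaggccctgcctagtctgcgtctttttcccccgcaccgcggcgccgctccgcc
The capitals are a TATA box (TATAAA) 32 bases before the start in EREG and 29 before it in AREG, a cAMP response element (TGACGTCA) in AREG, and GC boxes (GGGCGG, on either strand) in AREG and TGFA. A TATA box of these letters was present in 10.7% of 35116 RefSeq windows of the same length, the cAMP response element in 1.65% and the GC box in 42.6%. The AP-1 motif (TGANTCA, 6.57% of windows), the E-box bound by MYC (CACGTG, 6.34%), the EGR1 motif (GCGTGGGCG, 0.720%), the ETS motif (CCGGAAGT, 3.42%) and the CArG box of serum response elements (1.16%) had no match in these 3 windows. No matches overlapped, and a match describes letters only. Of the 2 TGFA starts in RefSeq, the one farther upstream is shown.

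EREG had the largest change of the 10 genes. It stood at 521, 470 and 496 CPM in siC1QBP and at 386, 366 and 371 CPM in siNC libraries. Every siC1QBP library was above every siNC library, and the lowest siC1QBP value exceeded the highest siNC value by more than the whole range of the siNC libraries. The fold change was 1.32 (95% interval 1.25 to 1.41; log2 0.41, SE 0.05; edgeR adjusted p = 2.55e-05). The call held under all 15 alternatives run, with log2 fold changes from 0.37 to 0.44, and was 0.40 with the length trend removed.

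AREG, the ligand with the highest RNA level, stood at 241, 264 and 264 CPM in siC1QBP and at 262, 241 and 239 CPM in siNC libraries. The groups overlapped: siC1QBP replicate 1 was as low as siNC replicates 2 and 3, and siNC replicate 1 nearly as high as siC1QBP replicates 2 and 3. The log2 fold change was 0.05 (95% interval -0.05 to 0.15; edgeR adjusted p = 0.528), and 0.13 with the length trend removed (adjusted p = 0.0757). Leaving out 1 library gave 0.09 or 0.10 without replicate 1 of either group and about 0.03 without any of the others.

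Within each library, the ratio of EREG to AREG counts was 2.17, 1.78 and 1.88 in siC1QBP and 1.48, 1.52 and 1.55 in siNC libraries. A ratio within a library does not depend on the scaling between libraries, though it keeps any trend with length. All 3 siC1QBP ratios were higher, by 1.28-fold on average (log2 difference 0.35; exact permutation test, two-sided p = 0.1, the lowest value possible with 3 libraries a group). This ratio was chosen after the values of both genes had been seen. The EREG to EGFR and TGFA to AREG ratios were also computed, with smaller log2 differences of 0.28 and 0.20. Both had the same lowest possible p (exact permutation test, p = 0.1). Without siC1QBP replicate 1 the log2 difference of the EREG to AREG ratio was 0.27. With the length trend removed, the log2 fold changes of EREG and AREG were 0.40 and 0.13, closer together than without removal.

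Around these genes on chromosome 4, within 200 kb of EREG, AREG or BTC, 11 genes are annotated and 4 passed the filter on low counts. Upstream of EREG, the folate enzyme gene MTHFD2L had means of 11.1 and 11.0 CPM in the siC1QBP and siNC libraries (log2 fold change 0.01, SE 0.11; edgeR adjusted p = 0.963). The ligand gene EPGN (epigen), between MTHFD2L and EREG, had 4 counts in each group. The 4 tested genes were MTHFD2L, EREG, AREG and BTC, and EREG alone was called. Of all tested genes 6.47% were called higher and 7.84% lower. As the window was drawn around EREG, AREG and BTC, MTHFD2L was the only tested gene it added.

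TGFA (ENSG00000163235; chromosome 2, 70447280 to 70554193, minus strand), a high-affinity EGFR ligand, stood at 120, 117 and 116 CPM in siC1QBP and at 105, 96.2 and 94.5 CPM in siNC libraries. The groups were apart, with siNC replicate 1 closest to the siC1QBP libraries. The fold change was 1.19 (95% interval 1.11 to 1.28; log2 0.25, SE 0.05; edgeR adjusted p = 0.00355). The call held under all 15 alternatives, with log2 fold changes from 0.22 to 0.30, and was 0.26 with the length trend removed.

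HBEGF (ENSG00000113070; chromosome 5, 140332843 to 140346631, minus strand), a ligand that also binds heparan sulphate, stood at 114, 113 and 116 CPM in siC1QBP and at 104, 102 and 108 CPM in siNC libraries. The groups did not overlap, yet the gene did not pass (log2 fold change 0.13, SE 0.05; edgeR adjusted p = 0.0786). It was called in 5 of 15 alternatives, among them the removal of the length trend (log2 fold change 0.17, adjusted p = 0.0158).

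BTC (ENSG00000174808; chromosome 4, 74744759 to 74794686, minus strand), a ligand of EGFR and ERBB4, was the least abundant of the 10, at 6.17, 6.92 and 6.20 CPM in siC1QBP and 7.79, 8.24 and 5.83 CPM in siNC libraries. The groups overlapped through siNC replicate 3 (log2 fold change -0.18, 95% interval -0.48 to 0.11; edgeR adjusted p = 0.459). BTC had 107 to 166 counts per library. The log2 fold change was -0.09 without siNC replicate 2, -0.32 without siNC replicate 3 and -0.13 with the length trend removed, and BTC was called in none of the 15 alternatives.

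**Figure D2:**
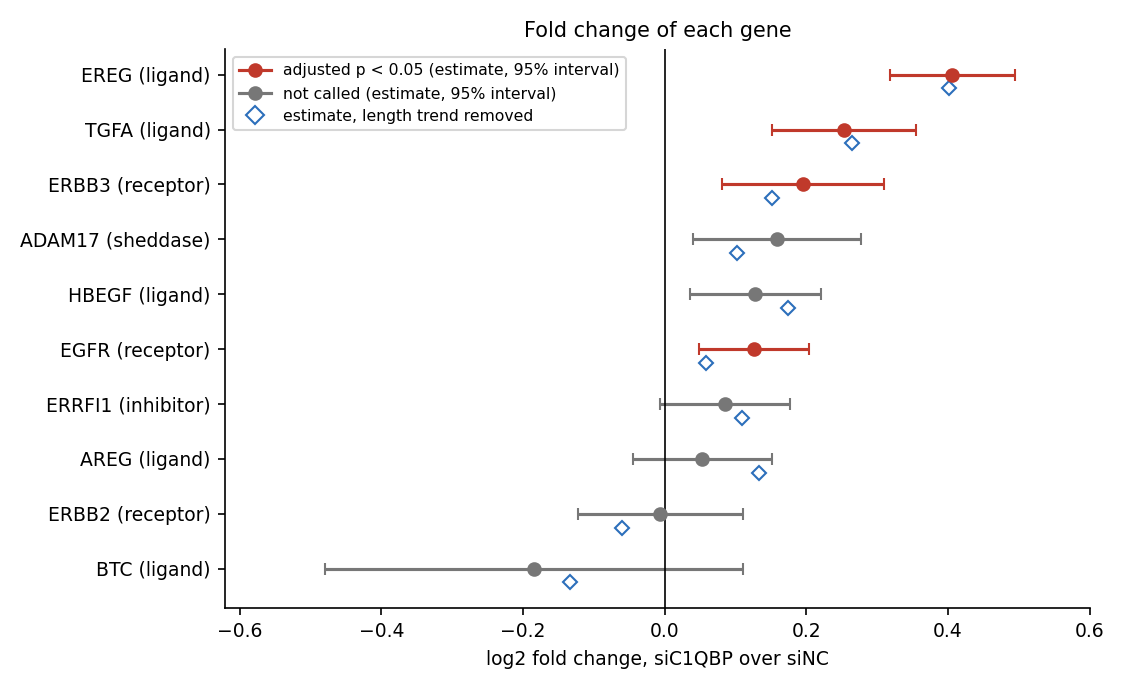
Log2 fold change of each gene, siC1QBP over siNC (filled points with 95% intervals; red, adjusted p under 0.05; grey, not called), and the estimate after removal of the trend with gene length (open diamonds). EREG at 0.41 and TGFA at 0.25 move little with the length trend removed, EGFR goes from 0.13 to 0.06, and HBEGF from 0.13 to 0.17.

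Summed over the 5 ligand genes, RNA levels were 1104, 1116 and 1145 TPM in siC1QBP and 1038, 950 and 955 TPM in siNC libraries. The sums did not overlap between the groups, though the levels of AREG and BTC taken alone did. Mean levels in siC1QBP and siNC libraries were 318 and 236 TPM for EREG and 570 and 540 TPM for AREG. They were 139 and 125 TPM for HBEGF, 86.8 and 71.6 TPM for TGFA, and 8.36 and 9.31 TPM for BTC. AREG held 50.8% ± 2.07 of the sum in siC1QBP and 55.0% ± 0.700 in siNC libraries, and EREG 28.3% ± 1.73 and 24.0% ± 0.304. HBEGF (12.4% against 12.7%), TGFA (7.74% against 7.29%) and BTC (0.746% against 0.949%) made up the rest.

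**Figure D3:**
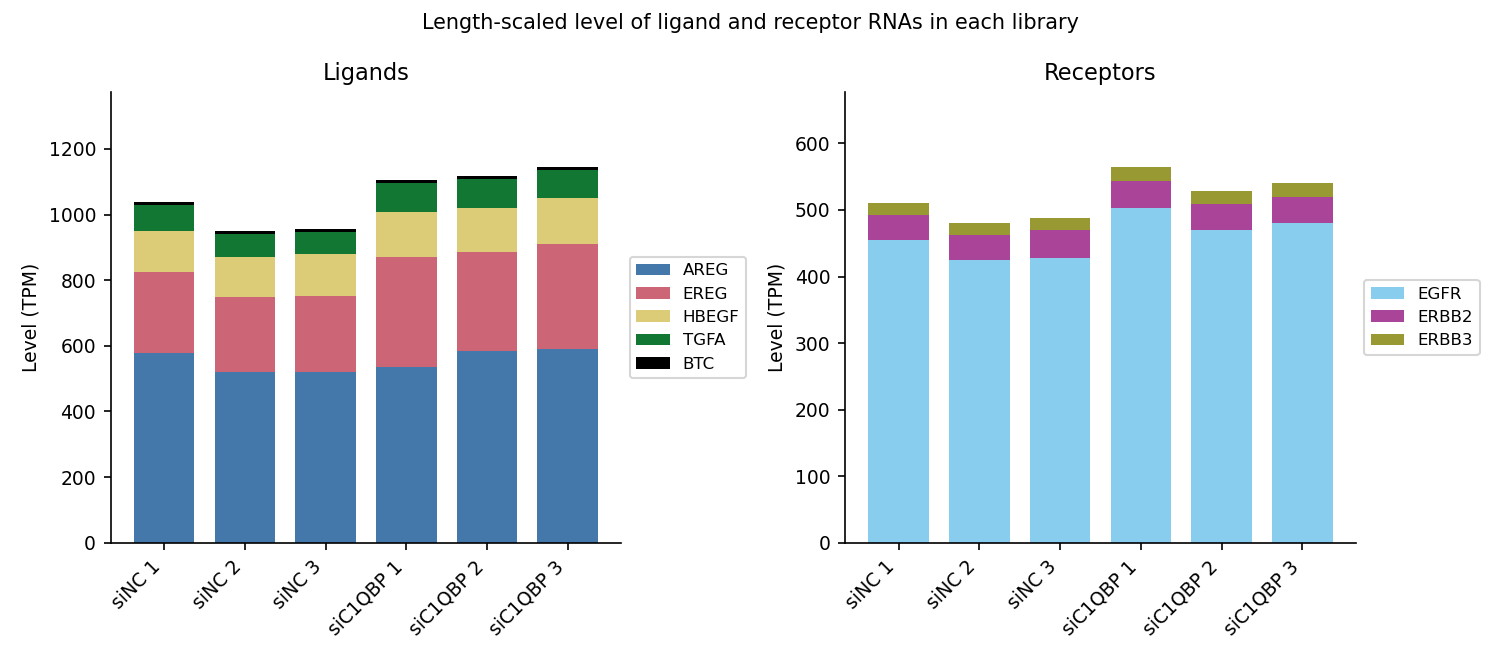
Level of the 5 ligand RNAs (left) and 3 receptor RNAs (right) in each library, in TPM, stacked by gene. The ligand stack reaches 1104 to 1145 TPM in siC1QBP and 950 to 1038 TPM in siNC libraries, and the EREG segment is thicker in all 3 siC1QBP libraries.

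Apart from NRG1, the other ligand genes of the family were scarce. EGF itself had 38 to 58 counts per library in siC1QBP and 37 to 41 in siNC libraries (log2 fold change 0.33, SE 0.24; edgeR adjusted p = 0.394). For EGF it was 0.16 without siC1QBP replicate 1 and 0.50 without siC1QBP replicate 3. The ERBB3 and ERBB4 ligand gene NRG1 (neuregulin) stood at 19.0 ± 1.22 against 17.1 ± 1.98 CPM (log2 fold change 0.15, adjusted p = 0.337). For NRG1 it was 0.06 without siNC replicate 2, 0.23 without siNC replicate 1 and 0.09 with the length trend removed. ERBB4, EPGN, NRG2, NRG3 and NRG4 did not pass the filter on low counts, so 0 of 2 tested genes of the 7 listed were called.

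ADAM17 (ENSG00000151694; chromosome 2, 9488486 to 9556732, minus strand), which frees most of these ligands from the cell surface, stood at 53.1, 52.2 and 51.6 CPM in siC1QBP and at 47.0, 49.3 and 44.1 CPM in siNC libraries. The groups did not overlap, but the gene did not pass (log2 fold change 0.16, SE 0.06; edgeR adjusted p = 0.0919) and did so in 0 of 15 alternatives. With the length trend removed the log2 fold change of ADAM17 was 0.10 (adjusted p = 0.270). Its opposite-strand neighbour IAH1, which overlaps it, held 2783 counts over the 6 libraries, against 5501 for ADAM17. The ADAM17 and ERBB3 counts were identical in 3 of the 6 libraries, though the genes lie on different chromosomes.

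Among 13 other genes of shedding and ligand trafficking, 11 were tested, 2 rose and 0 fell, with a median log2 fold change of 0.08. Over all tested genes 6.47% rose and 7.84% fell, with a median of 0.003, and among those of at least 40 CPM 9.37% rose and 15.8% fell. RHBDF2, which encodes iRhom2, a partner needed for the maturation of ADAM17, rose from 87.8, 84.0 and 86.6 to 107, 98.5 and 99.4 CPM (log2 fold change 0.24, SE 0.05; edgeR adjusted p = 0.00489). The protease gene BACE1 rose from 41.1 ± 2.17 to 49.9 ± 3.27 CPM (0.28, SE 0.07; adjusted p = 0.00946). The related RHBDF1 was at 30.4 ± 1.17 and 32.1 ± 2.61 CPM (0.08, adjusted p = 0.548). ADAM10, the sheddase that prefers EGF and betacellulin, was at 163 ± 6.00 and 175 ± 2.86 CPM (0.10, adjusted p = 0.150).

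ERRFI1 (ENSG00000116285; chromosome 1, 8004404 to 8026308, minus strand), the feedback inhibitor of the receptors, stood at 207, 200 and 212 CPM in siC1QBP and at 204, 194 and 186 CPM in siNC libraries. The groups overlapped through siNC replicate 1 and siC1QBP replicate 2 (log2 fold change 0.09, 95% interval -0.01 to 0.18; edgeR adjusted p = 0.244). It was 0.05 without siNC replicate 3 and 0.11 with the length trend removed (adjusted p = 0.122).

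Of 22 other genes for receptor inhibition, ubiquitination and trafficking, 2 rose, 1 fell and 19 did not pass (median log2 fold change -0.01). Over all tested genes 6.47% rose and 7.84% fell, and among those at 40 CPM or more 9.37% rose and 15.8% fell. The share of this list that rose was above that of all tested genes and no higher than that at 40 CPM or more. The share that fell was below both. The list also holds genes under 40 CPM, and whether its shares differ from either background was not tested. PTPRJ, a receptor-type phosphatase that acts on EGFR, rose from 127, 129 and 122 to 177, 167 and 174 CPM (log2 fold change 0.45, SE 0.05; edgeR adjusted p = 1.07e-05). STUB1, the ubiquitin ligase also called CHIP, fell by 0.36 (SE 0.09; adjusted p = 0.00846), a call lost without siNC replicate 3 (adjusted p = 0.0669). SOCS5, a suppressor of cytokine and EGFR signalling, rose by 0.24 (SE 0.07; adjusted p = 0.0399), a call lost without any one of 5 libraries, siNC replicate 1 excepted (adjusted p up to 0.160), and with the length trend removed, DESeq2 or no filter. Its log2 fold change stayed between 0.21 and 0.27 over all 15 alternatives. The receptor ubiquitin ligase CBL had means of 131 CPM in the siNC and 126 CPM in the siC1QBP libraries (-0.05, adjusted p = 0.551).

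Downstream of the receptors, 3 of 20 genes from adaptors to ERK fell and 0 rose (median -0.05). Over all tested genes 6.47% rose and 7.84% fell, and among those at 40 CPM or more 9.37% rose and 15.8% fell. The share of the list that fell was above that of all tested genes and near that at 40 CPM or more. Whether the list leans to lower calls was not tested. Of the 3 that fell, HRAS went from 57.8 ± 5.65 to 47.7 ± 3.40 CPM (log2 fold change -0.28, SE 0.07, edgeR adjusted p = 0.0183). The MEK1 gene MAP2K1 went from 119 ± 3.12 to 104 ± 1.79 CPM (-0.20, SE 0.05, edgeR adjusted p = 0.00928). The adaptor gene GRB2 went from 208 ± 5.81 to 182 ± 7.37 CPM (-0.19, SE 0.05, edgeR adjusted p = 0.00915). The HRAS call was lost without siNC replicate 2 or 3 (adjusted p up to 0.121) and the GRB2 call without siC1QBP replicate 2 or siNC replicate 2 or 3 (up to 0.0690). In the PI3K, phospholipase C and STAT branches 2 of 14 tested genes rose and 0 fell (median -0.01), beside 6.47% and 7.84% of all tested genes and 9.37% and 15.8% of those at 40 CPM or more. STAT3 rose from 209, 187 and 189 to 249, 239 and 241 CPM (0.32, SE 0.05; adjusted p = 0.000417), and PLCG1, the phospholipase bound by active EGFR, from 73.7, 73.3 and 74.3 to 89.5, 93.9 and 85.0 CPM (0.28, SE 0.05; adjusted p = 0.00219).

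Of 21 genes of ERK feedback and transcription, 4 rose and 4 fell (median 0.03), beside 6.47% and 7.84% of all tested genes and 9.37% and 15.8% of those at 40 CPM or more. The early response gene EGR1 rose from 26.2, 27.0 and 26.0 to 60.4, 61.0 and 58.9 CPM (log2 fold change 1.18, SE 0.06; edgeR adjusted p = 2.36e-09). FOS rose from 3.84, 3.92 and 3.32 to 9.45, 8.83 and 12.1 CPM (1.46, SE 0.16; adjusted p = 2.04e-05), IER2 by 0.27 (SE 0.07; edgeR adjusted p = 0.0217) and IER3 by 0.18 (SE 0.04; adjusted p = 0.00830). The ERK phosphatase gene DUSP6 fell from 197, 187 and 201 to 153, 151 and 157 CPM (-0.34, SE 0.05; adjusted p = 0.000127). The cyclin D1 gene CCND1 fell from 994 ± 14.9 to 812 ± 53.7 CPM (-0.29, SE 0.05; adjusted p = 0.000540), MYC fell by 0.23 (SE 0.06; adjusted p = 0.0101) and the receptor gene EPHA2 by 0.13 (SE 0.04; adjusted p = 0.0421). The call of IER2 was lost on leaving out replicate 2 or 3 of siC1QBP or replicate 1 or 2 of siNC (adjusted p up to 0.122), and that of EPHA2 in 8 of 15 alternatives, removal of the length trend included. The log2 fold change of EPHA2 stayed between -0.16 and -0.11 over all 15. The feedback genes DUSP4, DUSP5, SPRY1, SPRY2, SPRY4, SPRED1 and SPRED2 did not pass.

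**Figure D4:**
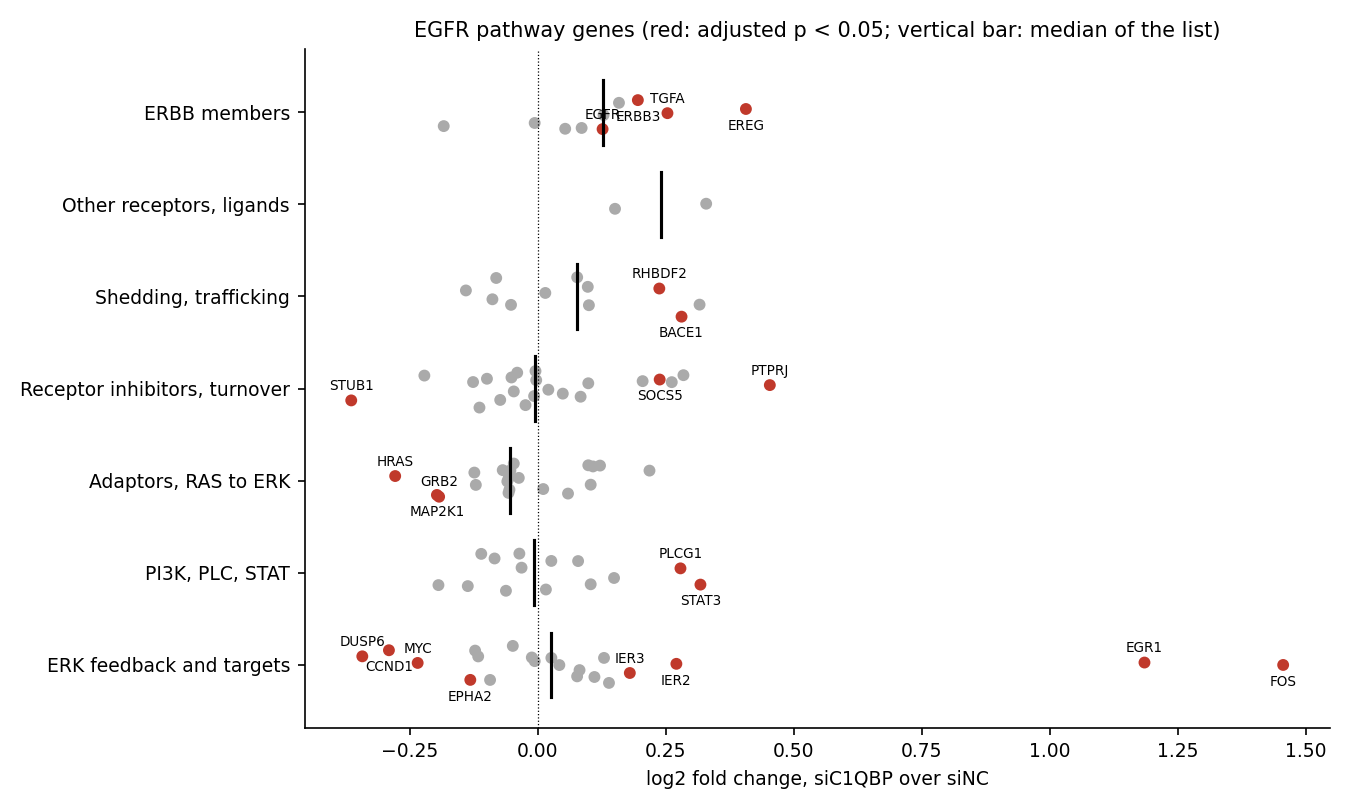
Log2 fold change (siC1QBP over siNC) of the 10 genes (top row) and of the tested genes of 6 pathway lists; each point is a gene, red and named where the adjusted p was under 0.05, and the vertical bar is the median of the list. FOS (1.46) and EGR1 (1.18) stand far to the right of the other genes.

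The genes whose profiles were nearest to those of the 3 genes with the smallest p were sought by the root mean square distance of log2 CPM over the 6 libraries, each profile centred on its mean, among 10534 protein-coding genes averaging at least 5 CPM. For EREG they were SLC38A2 (distance 0.0251, log2 fold change 0.44), ADARB1 (0.0261, 0.36) and TSC22D1 (0.0271, 0.41). For TGFA they were TMX4 (0.0147, 0.26), ZNF621 (0.0171, 0.25) and VPS13C (0.0200, 0.27), and for ERBB3 they were ADGRG1 (0.0170, 0.19), SLC37A2 (0.0210, 0.21) and ZZEF1 (0.0222, 0.23). Within the 10 genes, the nearest to EREG was TGFA at 0.0883, the nearest to TGFA was ERBB3 at 0.0670 and the nearest to ERBB3 was ADAM17 at 0.0315. ERBB3 and ADAM17 had identical counts in 3 of the 6 libraries, so their CPM were the same there. The 6 libraries share 2 group means, so these distances describe mainly the size of the group difference and the position of each library.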

How the data were processed

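Per the labels' protocols, RNA purified with an RNeasy kit was made into libraries with the NEBNext Ultra Directional kit. What the authors deposited is 1 table of unnormalized whole-number counts, with gene names, coordinates and a gene length in bases. Per the submitters' processing notes the build is hg38; any aligner, counting program or strand setting is not given in the sources used here. Total counts were 17122252 to 20416243 per library, so 3 counts correspond to 0.147 to 0.175 CPM.

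Counts of all genes were tested with edgeR 4.0.16 (R 4.3.3; quasi-likelihood test, TMM, filterByExpr, treatment as the only term, Benjamini-Hochberg over 15530 genes, adjusted p under 0.05). SEs come from the F statistic, and 95% intervals use the normal approximation. TPM used the table's gene length. The alternatives were DESeq2 1.42.0, limma-voom (limma 3.58.1), 2 scalings, 2 count filters, protein-coding genes only, each library left out, a replicate block, the length trend removed (lowess per library), an adjusted p under 0.01 and principal transcript lengths (GENCODE 29). The background above 40 CPM and the ratios of counts within a library were added after seeing the data. The script was tested on simulated data in which the changes set were all larger than those of TGFA, ERBB3 and EGFR. That test does not bear on changes as small as theirs.

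The 10 genes and the lists were chosen with earlier results of these data known. Named genes were the 10, and from each list up to 4 called genes each way with the smallest p, or the 2 highest by TPM where none was called; RHBDF1, ADAM10, CBL and the feedback genes that did not pass were added after their values were seen. Figures were drawn with matplotlib 3.10.9 in Python 3.11.15.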

Additional observations from a re-analysis of the deposited data

How the results depend on the processing

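EREG, TGFA and C1QBP kept direction and call under all 15 alternatives, and AREG, BTC, ADAM17 and ERRFI1 kept direction and stayed uncalled under all 15. EGFR went to 0.059 with the length trend removed and ranged from 0.10 to 0.14 with 1 library left out. ERBB3 lost its call with DESeq2 (0.19), no filter beyond 1 count (0.18) and the length trend removed (0.15), and ranged from 0.18 to 0.22 with 1 library left out. HBEGF was called with library size only (0.15), at least 5 CPM in 3 libraries (0.14), protein-coding genes only (0.14), the replicate block (0.13) and the length trend removed (0.17). ERBB2, never called, changed sign with library size only (0.019), at least 5 CPM (0.01) and protein-coding genes only (0.002), and ranged from -0.051 to 0.073 with 1 library left out (all log2 fold changes). The cause of these changes was not tested.

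The number of the 10 genes called higher was 4, 2 to 3 with 1 library left out (2 when replicate 2 or 3 of either group was left out), and 2 at an adjusted p under 0.01 (EREG and TGFA). Over all genes 2222 were called, 1105 to 2583 with 1 library left out (1105 with siNC replicate 2 left out, 1178 with siNC replicate 3 left out) and 1057 at an adjusted p under 0.01. The 18 calls of the 6 pathway lists, which held 2, 11, 22, 20, 14 and 21 tested genes, became 13 to 26. Of all tested genes 6.47% were called higher and 7.84% lower, and of those at 40 CPM or more 9.37% and 15.8%. The labels do not say whether same-numbered libraries of the 2 groups were handled together. Deviations of same-numbered libraries from their group means correlated at 0.192, 0.109 and 0.031. For siC1QBP replicates 1 and 2 the same number gave the highest correlation, but siC1QBP replicate 3 correlated better with siNC replicate 2 (0.088). Whether same-numbered libraries shared a batch was not itself tested. The replicate block is a fit that allows for such a batch, with replicate number as a term beside treatment. It called 3092 genes, against 2222 without the block.

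With principal transcript lengths the siNC levels were 353 TPM for EGFR, 55.9 for ERBB2, 17.5 for ERBB3, 185 for EREG, 456 for AREG, 100.3 for HBEGF, 52.4 for TGFA, 5.91 for BTC, 24.2 for ADAM17 and 143 for ERRFI1. The receptor sums became 478 (siC1QBP) and 426 TPM (siNC), and the ligand sums 927.1 and 799.5 TPM. ERBB4, EPGN, NRG2, NRG3 and NRG4 had too few counts to be tested.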
